A study of Homo sapiens with 6 samples.

Results

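The genes described here encode the core of the mTOR complexes and their nearest upstream regulators: MTOR, RPTOR and RICTOR, the tuberous sclerosis genes TSC1 and TSC2 with their target RHEB, the sestrins SESN1 and SESN2, and DDIT4. They were taken by gene name from a list of 10, keeping those with at least 10 counts in a library. Of the 10, 9 were found among the 20333 gene intervals of the deposited table, and all 9 were among the 19902 intervals tested; the remaining name, SESN3, was not analysed here. The assay was PRO-seq (nuclear run-on sequencing at high precision): after permeabilisation, polymerases that sit on a gene are allowed to run on, and the RNA they make is sequenced, so that reads count polymerases at work rather than mature RNA. T47D, the line used, is an established cell line of luminal breast cancer, labelled as estrogen receptor positive and HER2 negative. The cells were in growth factor-complete medium, and treatment lasted 5 h in every arm. The control arm received DMSO, another arm 500 nM of the catalytic AKT inhibitor GDC0068, and the last 100 nM of INY-05-040, a compound that degrades AKT and is labelled Degrader. Each arm had 2 libraries, with replicate numbers 1 and 2, from 2 independent experiments in this single cell line, and the doses, which differ between the drugs, had been chosen by the submitters for comparable suppression of downstream signalling.

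mTOR is a kinase that works in separate assemblies. With the RPTOR product it forms mTOR complex 1 (mTORC1), which promotes protein synthesis and growth, and with the RICTOR product it forms mTOR complex 2 (mTORC2), which phosphorylates and activates AKT. AKT in turn phosphorylates TSC2 and so relieves the brake that the TSC complex places on RHEB, the small GTPase that switches mTORC1 on. Sestrins hold mTORC1 back when amino acids are scarce, and the DDIT4 product, REDD1, does so through the TSC complex under hypoxia and other stress. The values below are transcription of these genes, not the amount or the phosphorylation of their proteins.

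Total counts per library lay between 25371819 and 32192576. Of the markers of luminal breast cells, 7 of 7 were transcribed, from 29.9 CPM at the lowest for EPCAM to 1439 CPM at the highest for GATA3 (CPM, counts relative to the scaled library size), and ERBB2, the HER2 gene, stood between 172 and 193 CPM. Of 11 markers of basal, fibroblast, leukocyte and endothelial cells only CD68, a lysosomal gene of macrophages, was among the intervals, at 55.1 to 83.6 CPM, and its part in the results was not tested. Replicates of an arm differed by more than sampling noise (chi-square per degree of freedom from 4.98 to 6.91). In a bulk sample, fewer cells that transcribe a gene and fewer polymerases per cell cannot be told apart, and every change is relative to the bulk of genes. The submitters' processing notes name the fly build dm3 with no role; whether fly material was added as a spike-in is not given in the sources used here, and no scaling to one was made.

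Among the 9 genes, 2 rose under Degrader and none fell. RICTOR rose 1.37-fold and TSC1 rose 1.24-fold. That is 2 of 9 called at an edgeR adjusted p under 0.05, where 15.3% of all genes tested were called in this contrast (7.39% higher and 7.88% lower), so the share of the list says little about the list as a whole. Its median log2 fold change was -0.00, as was that of all genes tested. The libraries of Degrader and DMSO did not overlap in 7 of the 9 genes, against 58.6% of all genes. Under GDC0068, 0 of the 9 genes were called, where 3.58% of all genes were (1.7% higher and 1.88% lower). There 3 of the 9 had an unadjusted edgeR p under 0.05, against 20% of all genes. DESeq2 also called 0 there, against 3.06% of all genes, and 5 of 9 did not overlap DMSO, against 50.1%. With the replicate number as a block the counts became 3 under Degrader (RICTOR and TSC1 higher, MTOR lower) and 3 under GDC0068 (the same names in the same directions), against 30.7% and 17.8% of all genes in that fit. Both contrasts use the same DMSO libraries. The 2 calls under Degrader were kept in each of the 6 fits that left out 1 library, while the share of all genes called dropped to 4.68% without DMSO replicate 1, 9.16% without DMSO replicate 2, 8.89% without Degrader replicate 1 and 4.67% without Degrader replicate 2. The GDC0068 share dropped to 0.185% without DMSO replicate 1, 0.666% without DMSO replicate 2, 1.48% without GDC0068 replicate 1 and 0.521% without GDC0068 replicate 2.

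**Figure D1:**
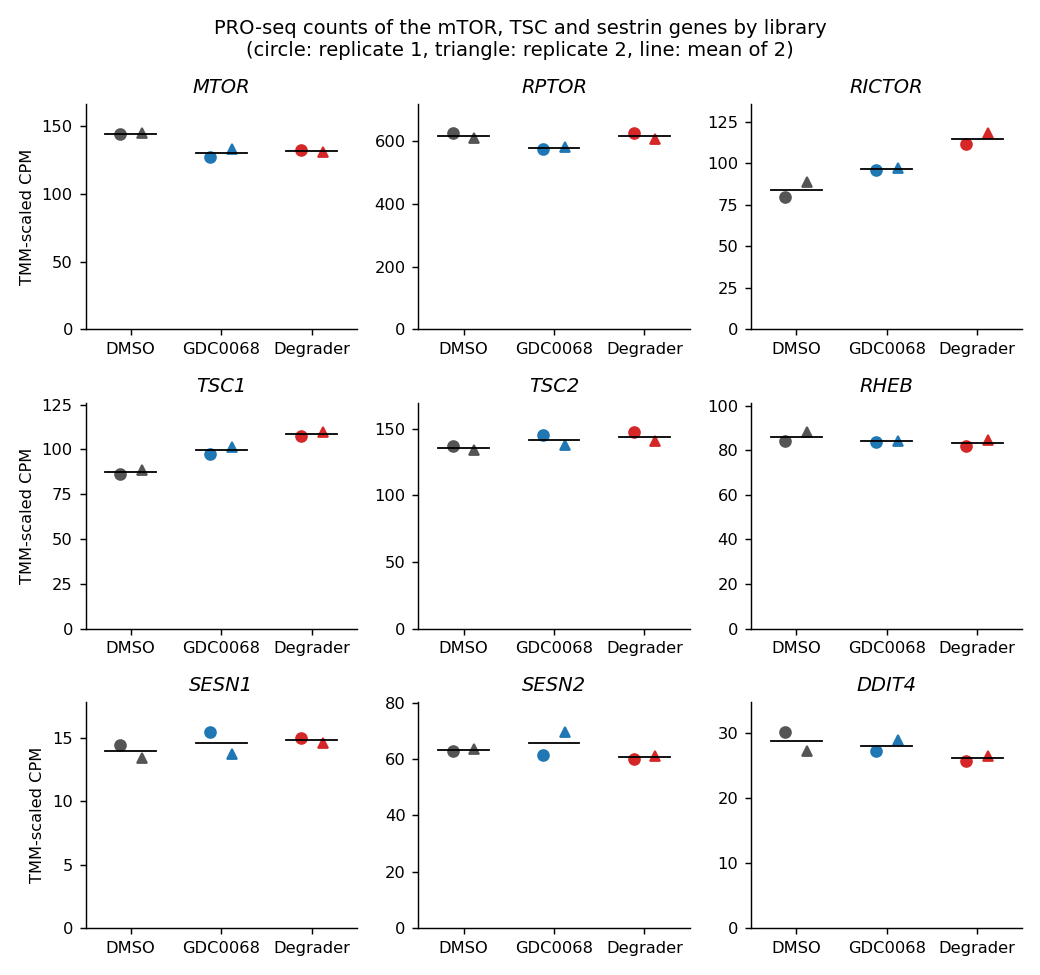
TMM-scaled CPM (y axis, from 0) of each of the 9 genes in the DMSO, GDC0068 and Degrader arms, with circles for replicate 1, triangles for replicate 2 and a line at the mean of 2 libraries. RICTOR and TSC1 step up from DMSO through GDC0068 to Degrader with no overlap between arms, MTOR is lower in both drug arms than in DMSO, and the libraries of the other genes lie close together or overlap.

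Levels between genes were compared per kb of counted interval in the DMSO arm (CPM per kb, SD, n = 2). DDIT4, whose interval is the shortest at 2.113 kb, stood highest with 13.6 ± 1.00. It was followed by TSC2 at 3.33 ± 0.045 and SESN2 at 2.75 ± 0.018. TSC1 at 1.64 ± 0.032 and RHEB at 1.60 ± 0.054 came next and did not differ beyond their spread. RPTOR stood at 1.46 ± 0.024 over the longest interval, 421.523 kb, and MTOR at 0.927 ± 0.0030. RICTOR at 0.616 ± 0.046 and SESN1 at 0.603 ± 0.030 were lowest and could not be ordered. Polymerase that pauses just after the start site weighs more in a short interval than in a long one, and which part of a gene was counted is not given in the sources used here.

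MTOR (ENSG00000198793, chromosome 1, 11106535 to 11262514, minus strand) encodes the kinase itself. Its libraries had 144 and 145 CPM in DMSO, 127 and 133 under GDC0068, and 133 and 131 under Degrader, so that all 4 drug libraries lay below both controls and the drug arms overlapped. Relative to DMSO the log2 fold change was -0.13 for Degrader (SE 0.047, edgeR adjusted p = 0.0822). For GDC0068 it was -0.15 (SE 0.047, edgeR adjusted p = 0.107). Neither passed the threshold. With the replicate block both did, with an edgeR adjusted p of 0.00500 and 0.00365. Between libraries with replicate number 1 the log2 ratios to DMSO were -0.12 for Degrader and -0.18 for GDC0068. With replicate number 2 they were -0.14 and -0.12.

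RPTOR (ENSG00000141564, chromosome 17, 80544846 to 80966368, plus strand) encodes raptor, the scaffold through which mTORC1 takes hold of its substrates. It had 625 and 610 CPM in DMSO, 574 and 582 for GDC0068, and 625 and 607 for Degrader. The GDC0068 libraries were below the others, and those of Degrader overlapped DMSO. The change under Degrader was -0.00 on the log2 scale (95% interval -0.12 to 0.12, edgeR adjusted p = 0.979), and that under GDC0068 was -0.09 (95% interval -0.21 to 0.02, edgeR adjusted p = 0.362). The sign under Degrader turned with upper-quartile scaling (0.00041), without DMSO replicate 1 (0.01) and without Degrader replicate 2 (0.01), so no direction is given.

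RICTOR (ENSG00000164327, chromosome 5, 38937920 to 39074380, minus strand) encodes rictor, the subunit that defines mTORC2, and it is widely described as a gene raised by FOXO factors. Its 2 DMSO libraries had 79.6 and 88.5 CPM, those of GDC0068 95.7 and 97.2, and those of Degrader 111 and 118. The 3 arms did not overlap, with DMSO lowest and Degrader highest. RICTOR rose under Degrader by 0.45 on the log2 scale (SE 0.059, 95% interval 0.32 to 0.58, edgeR adjusted p = 7.52e-04), a fold of 1.37 with an interval of 1.25 to 1.49. Without DMSO replicate 1, the lowest library, the change was 0.37, and without DMSO replicate 2 it was 0.53. Under GDC0068 the log2 fold change was 0.20 (SE 0.060, edgeR adjusted p = 0.0898), which was not called; the block turned this into a call (edgeR adjusted p = 8.44e-04). That value was 0.12 without DMSO replicate 1 and 0.28 without DMSO replicate 2. For replicate numbers 1 and 2, the log2 ratio of Degrader to DMSO was 0.49 and 0.42, and that of GDC0068 to DMSO was 0.27 and 0.13.

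The promoters of RICTOR and TSC1, the genes called under Degrader, are shown next, with those of their partners MTOR and TSC2. Each is the 250 bases before the RefSeq start, 5′ to 3′ on the gene's strand (GRCh38.p14), and capitals mark matches to the motifs named after them. The RefSeq starts lie 37 bp (MTOR), 19 bp (RICTOR), 8 bp (TSC1) and 0 bp (TSC2) from the starts of the counted intervals. The regions are chr1:11262552-11262801, minus strand, for MTOR; chr5:39074400-39074649, minus strand, for RICTOR; chr9:132944617-132944866, minus strand, for TSC1; and chr16:2047735-2047984, plus strand, for TSC2.
MTOR: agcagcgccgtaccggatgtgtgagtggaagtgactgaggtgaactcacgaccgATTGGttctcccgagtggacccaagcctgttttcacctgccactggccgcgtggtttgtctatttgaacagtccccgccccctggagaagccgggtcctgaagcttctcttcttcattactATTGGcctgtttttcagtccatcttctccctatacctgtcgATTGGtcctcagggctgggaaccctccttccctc
RICTOR: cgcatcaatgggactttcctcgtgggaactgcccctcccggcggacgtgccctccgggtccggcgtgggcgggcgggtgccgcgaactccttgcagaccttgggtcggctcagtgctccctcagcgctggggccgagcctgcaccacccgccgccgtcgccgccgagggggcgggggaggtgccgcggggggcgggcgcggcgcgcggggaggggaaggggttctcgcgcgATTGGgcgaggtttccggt
TSC1: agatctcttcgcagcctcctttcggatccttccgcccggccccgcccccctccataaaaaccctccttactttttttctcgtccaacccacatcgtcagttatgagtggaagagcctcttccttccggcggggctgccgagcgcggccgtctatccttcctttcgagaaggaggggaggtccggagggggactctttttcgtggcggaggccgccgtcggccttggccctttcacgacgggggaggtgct
TSC2: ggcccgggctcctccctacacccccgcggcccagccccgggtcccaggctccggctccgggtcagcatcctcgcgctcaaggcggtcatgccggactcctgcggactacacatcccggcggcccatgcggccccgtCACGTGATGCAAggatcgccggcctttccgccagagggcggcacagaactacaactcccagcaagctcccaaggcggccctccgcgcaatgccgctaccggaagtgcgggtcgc
Matches were searched on both strands over the 250 bases before and 50 after the start. The forkhead motif GTAAACA, a core of FOXO binding sites, was in 0 of the 9 windows and in 3.42% of the 35116 RefSeq promoter windows. The CCAAT box (CCAAT, or ATTGG where it is on the other strand) was in 6 of the 9 and in 34.6% of all windows; on the sense strand alone it was in 1 of the 9 and in 19.6%. MTOR had 3 such boxes, which start 196, 75 and 34 bases before the gene's start, and RICTOR had 1, at 19 bases. The E-box CACGTG was in 1 of 9 windows, that of TSC2, and in 7.26% of all. The amino acid response element TGATGNAA was likewise in 1 of 9, again TSC2, against 3.62%. These last matches start 114 and 110 bases before the start of TSC2 and overlap each other. TSC1 had no match to any of the 4 motifs. GC content was 76.0% for RICTOR, 71.6% for TSC2, 62.0% for TSC1 and 55.6% for MTOR, where the median of all windows was 58.0%.

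TSC1 (ENSG00000165699, chromosome 9, 132891349 to 132944608, minus strand) encodes hamartin, which stabilises the TSC complex. It had 86.4 and 88.8 CPM in DMSO, 97.4 and 102 under GDC0068, and 107 and 110 under Degrader. As for RICTOR, the 3 arms did not overlap and Degrader was highest. TSC1 rose under Degrader by 0.31 on the log2 scale (SE 0.049, 95% interval 0.20 to 0.42, edgeR adjusted p = 0.00214). Under GDC0068 its change was 0.18 (SE 0.049, edgeR adjusted p = 0.0640), called only with the replicate block (edgeR adjusted p = 0.00107). For replicate numbers 1 and 2, the log2 ratio to DMSO was 0.32 and 0.30 for Degrader, and 0.17 and 0.19 for GDC0068.

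TSC2 (ENSG00000103197, chromosome 16, 2047985 to 2088718, plus strand) encodes tuberin, the subunit with GTPase-activating activity towards RHEB and the one that AKT phosphorylates. Its libraries stood at 137 and 135 CPM in DMSO, 146 and 138 for GDC0068, and 147 and 141 for Degrader. The drug libraries lay above both controls by less than called: the log2 fold change was 0.09 under Degrader (95% interval -0.02 to 0.20, edgeR adjusted p = 0.276) and 0.06 under GDC0068 (edgeR adjusted p = 0.550). Its interval overlaps that of PKD1, on the opposite strand, by 11 bp. RHEB (ENSG00000106615, chromosome 7, 151466012 to 151519674, minus strand) had 84.0 and 88.0 CPM in DMSO, 83.9 and 84.1 for GDC0068, and 81.8 and 84.4 for Degrader. These arms overlapped. The change under Degrader was -0.05 (95% interval -0.16 to 0.06, edgeR adjusted p = 0.566).

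SESN1 (ENSG00000080546, chromosome 6, 108986442 to 109009552, minus strand), a sestrin known as a target of p53 and FOXO factors, had the fewest counts of the 9, from 366 to 464 per library, at which counting error alone is 5.23% to 4.64%. It stood at 14.4 and 13.5 CPM in DMSO, 15.5 and 13.7 under GDC0068, and 15.0 and 14.6 under Degrader. Both Degrader libraries lay just above both controls. The log2 fold change was 0.09 under Degrader (95% interval -0.13 to 0.30, edgeR adjusted p = 0.620) and 0.06 under GDC0068 (95% interval -0.16 to 0.28, edgeR adjusted p = 0.778). The interval begins at 1 of the 3 start sites that RefSeq gives for SESN1. Another of these lies 85294 bp upstream, outside the counted interval, so transcription between them did not enter these counts.

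SESN2 (ENSG00000130766, chromosome 1, 28259524 to 28282491, plus strand) encodes a leucine-binding sestrin that is also raised in the integrated stress response. It gave 63.0 and 63.6 CPM in DMSO, 61.6 and 69.7 for GDC0068, and 60.0 and 61.2 for Degrader. The GDC0068 libraries lay on either side of the controls, and without GDC0068 replicate 2 the change turned from 0.06 to -0.05 on the log2 scale. Under Degrader it was -0.06 (95% interval -0.20 to 0.08, edgeR adjusted p = 0.568).

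DDIT4 (ENSG00000168209, chromosome 10, 72273924 to 72276036, plus strand) had 30.2 and 27.2 CPM in DMSO, 27.2 and 28.9 under GDC0068, and 25.7 and 26.5 under Degrader. Degrader was below both controls, and GDC0068 overlapped them. The log2 fold change was -0.14 under Degrader (95% interval -0.32 to 0.04, edgeR adjusted p = 0.291), a value that rested largely on 1 control: it was -0.21 without DMSO replicate 2 and -0.06 without DMSO replicate 1. Under GDC0068 it was -0.03 (edgeR adjusted p = 0.865), with -0.15 for replicate number 1 and 0.09 for replicate number 2. As folds of Degrader over DMSO, the intervals of the stress-responsive genes run from 0.911 to 1.24 for SESN1, from 0.871 to 1.06 for SESN2 and from 0.802 to 1.03 for DDIT4.

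**Figure D2:**
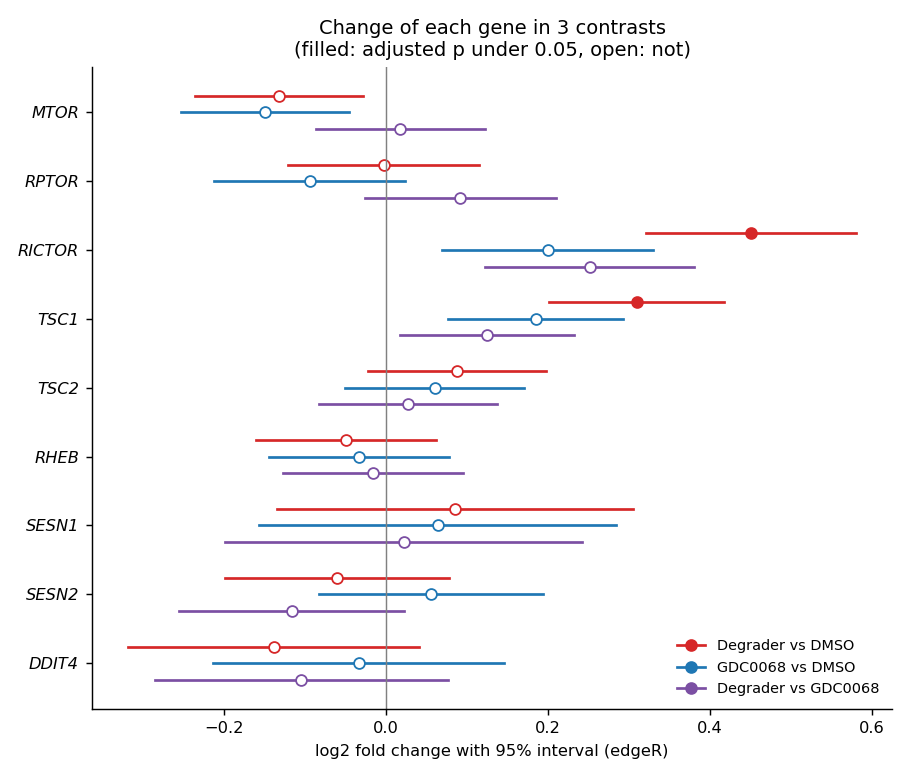
Log2 fold change (x axis) with its 95% interval from edgeR for the 9 genes in 3 contrasts, Degrader against DMSO in red, GDC0068 against DMSO in blue and Degrader against GDC0068 in purple; filled points passed an adjusted p under 0.05. Only RICTOR and TSC1 under Degrader are filled, at 0.45 and 0.31.

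Ratios between partner genes within a library do not depend on how libraries are scaled, and they were computed from counts per kb as a description, with no test. The ratio of RICTOR to RPTOR was 0.394 and 0.448 in DMSO, 0.515 and 0.516 under GDC0068, and 0.551 and 0.601 under Degrader. Transcription of RICTOR relative to that of RPTOR was thus lowest in DMSO and highest under Degrader, with no overlap. RICTOR does not stand for every mTORC2 gene here. Under Degrader, the log2 fold change of PRR5 was -0.48 (edgeR adjusted p = 0.00443). That of MAPKAP1, named after its values were seen, was -0.08 (edgeR adjusted p = 0.367). The ratio of RICTOR to MTOR moved from 0.631 and 0.699 in DMSO to 0.859 and 0.834 under GDC0068, and to 0.960 and 1.03 under Degrader. For RPTOR over MTOR the values were 1.60 and 1.56 in DMSO, 1.67 and 1.62 under GDC0068, and 1.74 and 1.71 under Degrader. TSC1 over TSC2 gave 0.482 and 0.505 in DMSO, 0.511 and 0.565 under GDC0068, and 0.558 and 0.593 under Degrader, where the drug arms overlapped each other and not DMSO.

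**Figure D3:**
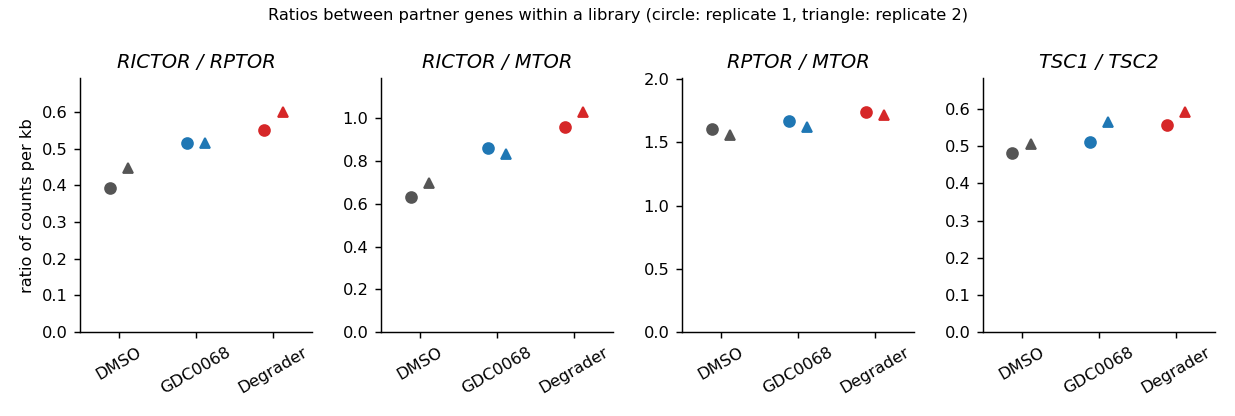
Ratio of counts per kb (y axis, from 0) between partner genes in each library, for RICTOR over RPTOR, RICTOR over MTOR, RPTOR over MTOR and TSC1 over TSC2, with circles for replicate 1 and triangles for replicate 2. RICTOR over RPTOR climbs from 0.394 and 0.448 in DMSO to 0.551 and 0.601 under Degrader.

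Whether degrading AKT and inhibiting it differ was asked by setting Degrader against GDC0068, at doses that differ. edgeR called 0 of the 9 genes, where 0.266% of all genes were called (0.116% higher and 0.151% lower). DESeq2 called 0 (0.683% of all genes). Of the 9, 2 had an unadjusted edgeR p under 0.05 (14.1% of all genes), and 5 did not overlap between the drugs (45%). RICTOR was higher under Degrader by 0.25 on the log2 scale (SE 0.059, 95% interval 0.12 to 0.38, edgeR adjusted p = 0.102), and TSC1 by 0.12 (SE 0.049, 95% interval 0.02 to 0.23, edgeR adjusted p = 0.282). With the replicate block both were called, with an edgeR adjusted p of 1.22e-04 for RICTOR and 0.0318 for TSC1, against 10.4% of all genes. For replicate numbers 1 and 2 the log2 ratio of Degrader to GDC0068 was 0.22 and 0.28 for RICTOR, and 0.14 and 0.11 for TSC1. For MTOR the difference was 0.02 (95% interval -0.09 to 0.12), for RHEB -0.02 (-0.13 to 0.10) and for TSC2 0.03 (-0.08 to 0.14). As folds of Degrader over GDC0068, these intervals run from 0.942 to 1.09 for MTOR, from 0.916 to 1.07 for RHEB and from 0.944 to 1.10 for TSC2. RPTOR gave 0.09 (-0.03 to 0.21), SESN1 0.02 (-0.20 to 0.24), SESN2 -0.12 (-0.26 to 0.02) and DDIT4 -0.10 (-0.29 to 0.08).

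The genes whose pattern over the 6 libraries was most like that of a called member were sought among the 13896 genes averaging 10 CPM or more, with the correlation given as a description, since all values share the same libraries. For RICTOR they were TRIQK (Pearson's r 0.9996, log2 fold change under Degrader 0.45) and WASHC5 (r 0.996, 0.17). For TSC1 they were CALCOCO1 (r 0.9997, 1.25), a gene of selective autophagy, and ATP6V1C1 (r 0.9987, 0.32), a subunit of the vacuolar proton pump. With 6 libraries such values are common: 444 genes exceeded an r of 0.95 with RICTOR and 589 with TSC1. The genes found moved by very different amounts.

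The rest of the pathway was read through 66 genes in 9 lists, of which 63 were found and tested. Under Degrader 15 of 63 were called, 12 higher and 3 lower, where 15.3% of all genes were called; the median log2 fold change was 0.04, against -0.00 for all genes. With the replicate block 26 were called, 15 higher and 11 lower, where 30.7% of all genes were. Under GDC0068 4 were called (3 higher, 1 lower), where 3.58% of all genes were, and with the block 12 (8 higher, 4 lower), where 17.8% were. Between the drugs 0 were called by edgeR and 0 by DESeq2 (0.266% and 0.683% of all genes). There, 16 had an unadjusted edgeR p under 0.05 (14.1%), and 10 were called with the block (10.4%). The Degrader count was lower without DMSO replicate 1 or without Degrader replicate 2, fits in which the share of all genes called was lower too. The GDC0068 count was lower without any 1 of the DMSO and GDC0068 libraries, and so was the share of all genes called.

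Among the other mTOR complex subunits and their assembly factors, 2 of 8 rose and 1 fell under Degrader, where 15.3% of all genes were called. DEPTOR, which binds and restrains mTOR, had 74.2 and 69.4 CPM in DMSO, 95.1 and 99.2 under GDC0068, and 113 and 113 under Degrader. DEPTOR rose by 0.65 on the log2 scale under Degrader (SE 0.053, edgeR adjusted p = 8.19e-05) and by 0.43 under the inhibitor (SE 0.053, edgeR adjusted p = 0.00318), and both calls were kept whichever library was left out. PRR5, an mTORC2 subunit, fell by 0.48 under Degrader (edgeR adjusted p = 0.00443), from 64.7 and 56.2 CPM to 46.2 and 40.9; without DMSO replicate 1 it was not called (edgeR adjusted p = 0.0508). AKT1S1, the gene of the mTORC1 inhibitor and AKT substrate PRAS40, rose by 0.24 under Degrader (edgeR adjusted p = 0.0192). MLST8, the subunit that both complexes share, had 44.9 and 44.3 CPM in DMSO and 42.1 and 46.1 under Degrader, which overlap; it was named after its values were seen.

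The amino acid branch was covered by 4 lists, whose counts under Degrader stand beside 15.3% of all genes called. Of the folliculin complex, which acts on the Rag GTPases, 2 of 3 rose: FNIP1 had 221 and 225 CPM in DMSO, 255 and 257 under GDC0068 and 299 and 287 under Degrader (0.39, SE 0.050, edgeR adjusted p = 6.74e-04), and FLCN rose by 0.26 (edgeR adjusted p = 0.0115). Of 4 amino acid sensors, CASTOR2, a paralog of the arginine sensor CASTOR1, rose by 0.53 under Degrader (SE 0.054, edgeR adjusted p = 2.00e-04), with a smaller value of 0.30 for GDC0068 (SE 0.054, edgeR adjusted p = 0.0159), and SAMTOR, the sensor of S-adenosylmethionine listed under its older name BMT2, rose by 0.38 under Degrader (SE 0.063, edgeR adjusted p = 0.00258). CASTOR2 has close copies in the genome, among which reads could be split. Within the FNIP1 interval lies AC008695.2 on the same strand (972 bp, mean of 110 counts), and sharing of reads between them was not tested. The SAMTOR interval overlaps that of AC002463.1 (mean of 386 counts), on the opposite strand, by 4493 of its 120660 bp. The KPTN interval overlaps that of NAPA-AS1 (mean of 497 counts), also on the opposite strand, by 47 bp. Sharing of reads was not tested there either. Of the 10 genes for Rag GTPases, the Ragulator and the lysosomal arginine sensor, SLC38A9 alone was called under Degrader (0.20, edgeR adjusted p = 0.0293), and of 12 GATOR and KICSTOR genes KPTN alone (0.25, edgeR adjusted p = 0.0365). With the replicate block these counts became 2 of 10, both higher, and 6 of 12, with 2 higher and 4 lower, where 30.7% of all genes were called.

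Of 13 substrates and outputs of mTORC1, 2 rose and 2 fell under Degrader, where 15.3% of all genes were called. ULK1, the kinase that starts autophagy and is held back by mTORC1, rose from 142 and 137 CPM to 173 and 170 (0.30, SE 0.049, edgeR adjusted p = 0.00244). Within its interval lies AC131009.4 on the same strand (1962 bp, mean of 750 counts), and sharing of reads between them was not tested. MAF1, a repressor of RNA polymerase III, rose by 0.46 under Degrader (SE 0.076, edgeR adjusted p = 0.00263), and by 0.32 when AKT was inhibited with GDC0068 (SE 0.076, edgeR adjusted p = 0.0437). EIF4EBP1 encodes a repressor of cap-dependent translation that mTORC1 inactivates. EIF4EBP1 fell by 0.35 under Degrader (SE 0.060, edgeR adjusted p = 0.00347), and by 0.27 with the inhibitor (SE 0.060, edgeR adjusted p = 0.0339). RPS6, the ribosomal protein phosphorylated by S6 kinase, had 56.2 and 55.9 CPM in DMSO, 56.8 and 51.9 under GDC0068 and 43.8 and 47.3 under Degrader, and fell by 0.30 under Degrader (SE 0.064, edgeR adjusted p = 0.0101). Of the SGK kinases, which mTORC2 activates, SGK3 rose by 0.31 under Degrader (SE 0.056, edgeR adjusted p = 0.00440), 1 of 2 tested. RHEBL1, a paralog of RHEB at 1.56 and 1.87 CPM in DMSO, rose by 0.69 (edgeR adjusted p = 0.0499). Of the 9 AMPK and LKB1 genes, edgeR and DESeq2 each called 0 under Degrader, where they called 15.3% and 11.4% of all genes. Of these 9, 1 had an unadjusted edgeR p under 0.05 (29.9% of all genes did). The log2 fold changes of the 9 ran from -0.13 to 0.17.

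Several of these calls were lost when a library was left out. Under Degrader, RPS6 was not called without DMSO replicate 1 (edgeR adjusted p = 0.0700) or Degrader replicate 1 (0.0799), and SGK3 not without Degrader replicate 2 (0.0575). AKT1S1, FLCN, SLC38A9, KPTN and RHEBL1, named after their values were seen, lost their calls without any 1 of the 4 DMSO and Degrader libraries, with edgeR adjusted p-values from 0.0512 (FLCN without DMSO replicate 2) to 0.295 (KPTN without Degrader replicate 2). Their log2 fold changes in the fits without 1 library ran from 0.22 to 0.25 for AKT1S1, 0.24 to 0.26 for FLCN, 0.17 to 0.22 for SLC38A9, 0.18 to 0.30 for KPTN and 0.56 to 0.83 for RHEBL1. Under GDC0068, CASTOR2 was not called without DMSO replicate 1 (0.0688), DMSO replicate 2 (0.111) or GDC0068 replicate 2 (0.0978). EIF4EBP1 lost its GDC0068 call without DMSO replicate 1 (0.167), DMSO replicate 2 (0.137), GDC0068 replicate 1 (0.133) or GDC0068 replicate 2 (0.0713). MAF1 lost its GDC0068 call without any 1 of the 6 libraries, with values from 0.0567 to 0.266 and log2 fold changes from 0.28 to 0.35, and also in the fit of the 4 libraries compared (0.0630) and with DESeq2 (0.0501). With DESeq2, SLC38A9 (0.0882) and KPTN (0.0778) were not called under Degrader, and RHEBL1 was given no adjusted p. RHEBL1 was also not called with RLE scaling (0.0502) or library totals only (0.0518). In the other direction, DESeq2 without a block called 1 of the 3 folliculin complex genes under GDC0068 (3.06% of all genes), where edgeR called 0.

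The replicate block took no call from the list genes and added calls in each contrast. Under GDC0068 the genes named above that it added were FNIP1 (edgeR adjusted p = 0.0536 without and 2.49e-04 with the block), ULK1 (0.0859 and 0.00112) and PRR5 (0.152 and 0.00122), of which PRR5 was lower than in DMSO. SAMTOR (0.0896 and 0.0158) and SGK3 (0.179 and 0.0165) were added there too, both higher. Between the drugs it added DEPTOR (0.104 and 7.60e-04), CASTOR2 (0.0940 and 8.31e-04), FNIP1 (0.126 and 6.38e-04), ULK1 (0.255 and 0.0120), SGK3 (0.227 and 0.00986) and FLCN (0.277 and 0.0469), all higher under Degrader, and PRR5 (0.255 and 0.00260) and RPS6 (0.125 and 0.00367), both lower. Under Degrader the 11 calls it added were of genes not named so far, and they are named after their values were seen. WDR59, a GATOR2 subunit (edgeR adjusted p with the block = 0.00251), RRAGC, a Rag GTPase (0.0313), and the transcription factor TFE3 (0.0317) were higher. SEH1L (0.00186), SEC13 (0.0437), NPRL3 (0.0229) and KICS2 (0.00960) of the GATOR and KICSTOR list, TELO2 (0.00343), TFEB (0.00748), GRB10 (0.0128) and PRKAG1, a regulatory subunit of AMPK (0.0111), were lower. TELO2 and PRKAG1 were also added, lower, under GDC0068 (0.0407 and 0.0253 with the block). The remaining calls it added were NPRL2 under GDC0068, higher (0.0311 with the block), and, between the drugs, DEPDC5, higher under Degrader (0.0439), and SEH1L, lower (0.0215).

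**Figure D4:**
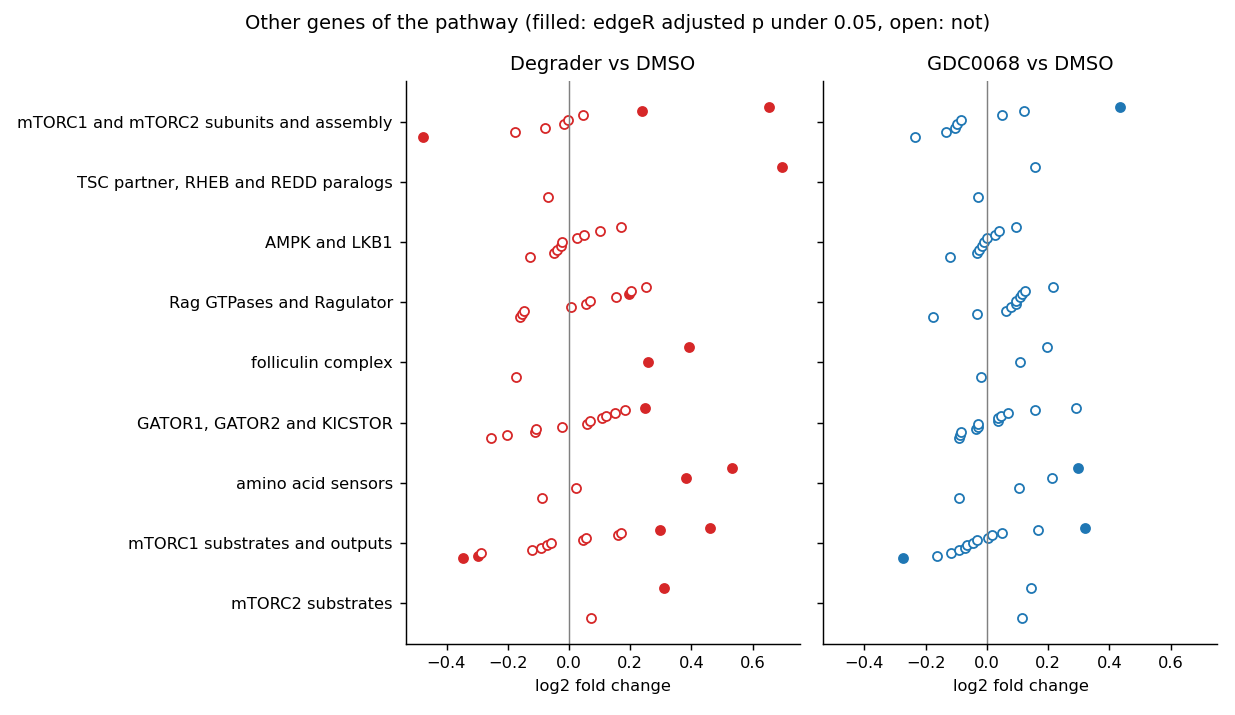
Log2 fold change (x axis) of the 63 other pathway genes by list (y axis), under Degrader on the left and GDC0068 on the right, with filled points for an edgeR adjusted p under 0.05. Filled points number 15 on the left, with DEPTOR at 0.65 and PRR5 at -0.48 in the top row, and 4 on the right.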

How the data were processed

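PRO-seq was run on 6 libraries of T47D cells, 2 per arm. The authors deposited 1 table of raw counts per gene interval, whole numbers that are not normalised. Per the submitters' processing notes, cutadapt 1.14, Bowtie 1.2.2, SAMtools 1.3.1, HISAT2 2.2.1 and limma were used, and the builds dm3, hg38 and GRCh38 are named, with no roles. The counting tool, the use of strand, the removal of duplicates and the part of a gene counted are not given in the sources used here; each can change the counts, and errors from counting alone cover counting only. All 20333 identifiers are human, and of 15572 names found in the GRCh38.p14 gene table, 99.8% overlapped the interval of that name.

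The fit used edgeR 4.0.16 under R 4.3.3, with filterByExpr (minimum count 10, minimum total 15), TMM scaling (factors 0.997 to 1.003), and 1 quasi-likelihood fit of all 6 libraries with a term per arm and 3 residual degrees of freedom. Calls required an adjusted p (Benjamini-Hochberg, across all 19902 genes) below 0.05; every adjusted p in the text is from edgeR unless DESeq2 1.42.0 is named. SE is the log2 fold change over the square root of F, and the 95% interval uses the moderated degrees of freedom. CPM are TMM-scaled, and SD is over 2 libraries. The script was tested on simulated data. No permutation test between arms of 2 can pass 0.05.

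The series text describes 2 independent experiments. Within a replicate number, departures of genes from the arm mean were correlated between arms. Across all genes tested, r was 0.177, 0.220 and 0.204 for DMSO with GDC0068, DMSO with Degrader and GDC0068 with Degrader. Over genes averaging 10 CPM or more, which include all 9 members, r was 0.419, 0.492 and 0.425 in the same order. Values with the replicate number as a block are therefore given where they change a call. The members and lists were chosen with earlier results of these data known. Named were all members, up to 10 called list genes per contrast by adjusted p, and 2 genes per called member by likeness. KICS2 and SAMTOR were matched by older names; PRR5L, DDIT4L, SGK2 and SESN3 were not analysed here. Promoters are from RefSeq (GRCh38.p14), with all 9 genes matched. For SESN1 and TSC2, with several, the window nearest the interval's start was taken.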

Additional observations from a re-analysis of the deposited data

How the results depend on the processing

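RICTOR and TSC1 kept their Degrader calls under each alternative scaling, filter, model and left-out library tried. The replicate block moved the counts most: members called were 3 under GDC0068 and 2 between the drugs, list genes called were 26, 12 and 10 (Degrader, GDC0068, between the drugs), and the percent of all genes called was 30.7, 17.8 and 10.4. It changed no other member's call than those of MTOR, RICTOR and TSC1 given above. The percent called between the drugs was 0.683 with DESeq2, 0.583 with robust estimation and 0.116 in the fit of the 4 libraries compared. Leaving out 1 library gave 8 to 17 list genes under Degrader and 1 to 3 under GDC0068, and 4.67 to 16.1, 0.185 to 2.74 and 0.0251 to 0.316 percent of all genes called. Signs turned only in changes of members that were not called, and the cause was not tested. Under Degrader, RPTOR was 0.00041 with upper-quartile scaling and -0.025 to 0.011 over the left-out libraries. Over the same fits, the GDC0068 change ran from -0.071 to 0.00077 for RHEB, -0.025 to 0.14 for SESN1, -0.046 to 0.14 for SESN2 and -0.11 to 0.041 for DDIT4. The difference between the drugs ran from -0.012 to 0.058 for MTOR, -0.0061 to 0.071 for TSC2, -0.058 to 0.11 for SESN1 and -0.042 to 0.012 for RHEB. With 2 libraries per arm and 366 to 464 counts, the 95% interval of SESN1 under Degrader ran from -0.13 to 0.30. A call needed an adjusted p under 0.05, which is stricter than an interval that leaves out 0. A change of SESN1 whose interval left out 0 could therefore still have gone uncalled.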
